A study of Mus musculus with 8 samples.

Results

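Prmt5-null B cells were examined for 9 genes that control the phosphorylation of splicing factors or hold together the nuclear bodies that store them. These genes are the Cdc2-like kinases Clk1, Clk2, Clk3 and Clk4, the SR protein kinases Srpk1 and Srpk2, the kinase Dyrk1a, and the speckle scaffolds Son and Srrm2. They were chosen by symbol in the gene table and the splicing tables, and the gene table held all 9 among its 39017 genes. The RNA came from iGBs, splenic B cells that take on a germinal center phenotype when grown on 40LB feeder cells, a fibroblast line expressing CD40L and BAFF, with 1 ng/mL IL-4. Prmt5-null iGBs carried Prmt5 F/F and Cγ1-cre (mice 10617, 10618, 10770 and 10771), and control iGBs carried Cγ1-cre alone (mice CTRL-10370, CTRL-10596, CTRL-10597 and CTRL-10650). All mice were C57BL6/J, 2 to 4 months of age and of both sexes by the study's methods, and the cells were elutriated off the feeder layer on day 4. Cγ1-cre acts once B cells are activated, so the culture rather than the animal loses the gene, and both genotypes express Cre.

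SR proteins carry long runs of arginine and serine that must be phosphorylated, and then dephosphorylated, for each round of splicing. SRPK kinases act mostly in the cytoplasm and send SR proteins into the nucleus, where CLK and DYRK kinases phosphorylate them further and release them from speckles, bodies built around SON and SRRM2. Prmt5, the arginine methyltransferase removed here, methylates Sm proteins of the spliceosome. CLK transcripts are themselves known for skipped exons and retained introns that alter how much active kinase they encode.

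Prmt5 was lost as labelled, falling from 11774 ± 908 normalized counts in control to 1538 ± 436 in Prmt5-null libraries (SD, n = 4 each), a log2 change of -2.98 (SE 0.17, limma adjusted p = 6.14e-06). The 8 libraries held 36731721 to 50366174 reads on genes, and the 9 genes took 0.127% to 0.194% of the reads of a library. B cell markers summed to 150299 to 181609 normalized counts in every library, and of the 7 tested Cd79a fell (log2 change -0.74) and none rose. Germinal center markers summed to 25498 to 26161 in Prmt5-null and 18826 to 23631 in control libraries, without overlap, and of the 4 tested Fas rose and none fell. All T cell markers lay under the mean of 10 needed for testing, and Cd3e was at 0. Markers of fibroblasts, as the feeder cells are, summed to 7120 to 11862 normalized counts in Prmt5-null and 4657 to 8093 in control libraries. Of 8 fibroblast markers tested, 3 rose (Col3a1, Col1a2 and Sparc) and none fell, with a median log2 change of 0.74, while Lum and Postn had at most 15.2 and 4.74 normalized counts. Plasma cell markers summed to 23630 to 31162 in Prmt5-null and 29919 to 45643 in control libraries, and of the 4 tested Xbp1 and Prdm1 fell and none rose (log2 differences from -0.57 for Jchain to 0.16 for Sdc1). Myeloid markers summed to 171 to 295 in Prmt5-null and 104 to 215 in control libraries, and of the 3 tested Adgre1 rose and none fell. These markers move with genotype beside every result below, and their part in those results was not tested. In bulk RNA, fewer cells of a type and less RNA per cell cannot be told apart.

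The transcript changes described below turn on a few short sequences of Clk2 and Clk4, which show where the alternative forms join and stop. Exon numbers follow the GENCODE M21 transcripts Clk2-203 and Clk4-201 on GRCm38, from which the sequences were read. Exon 4 of Clk2 (chr3:89169615-89169702, plus strand) has 88 bases, so leaving it out shifts the reading frame. It is shown first with 20 intron bases on each side, the exon in capitals. The donor (5′) and acceptor (3′) splice sites used to skip exon 4 or keep it follow, with the GT or AG at the intron's end in capitals. The donor of exon 3 has GTgagt at the start of its intron, and the donor of exon 4 has GTacaa. The acceptor of exon 4 follows a stretch of mostly C, and the acceptor of exon 5 a stretch of mostly T.
Clk2 exon 4 (chr3:89169595-89169722): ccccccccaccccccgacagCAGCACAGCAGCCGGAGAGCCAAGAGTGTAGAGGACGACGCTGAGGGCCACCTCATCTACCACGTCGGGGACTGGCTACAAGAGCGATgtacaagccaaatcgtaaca
Donor of exon 3 (chr3:89168921-89168929): tcaGTgagt
Donor of exon 4 (chr3:89169700-89169708): gatGTacaa
Acceptor of exon 4 (chr3:89169601-89169616): ccaccccccgacAGca
Acceptor of exon 5 (chr3:89170035-89170050): ttctttcgtttcAGat

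Joining exon 3 straight to exon 5 of Clk2 brings a stop codon into frame 9 bases into exon 5, after 136 codons of a reading frame of 500. In Clk4 the comparable change is the addition of a 59-base exon (chr11:51270537-51270595, plus strand) between exons 2 and 3, which brings a stop codon into frame 8 bases into exon 3, after 76 of 481 codons. GENCODE holds that exon only in Clk4-204, Clk4-212 and Clk4-214, all annotated as nonsense-mediated decay transcripts. It annotates the Clk2 form without exon 4, Clk2-204, the same way. In those Clk4 transcripts the added exon is number 4 or 5, so it does not directly follow exon 2. The 76 codons are those of Clk4-201 with the exon added, and the annotation as decay transcripts does not cover that form. The stop codons are in capitals in the junctions, and the Clk4 exon is in capitals throughout.
Clk2 junction of exons 3 and 5: agccgctcatcttcaatgaaattgTAA
Clk4 additional exon: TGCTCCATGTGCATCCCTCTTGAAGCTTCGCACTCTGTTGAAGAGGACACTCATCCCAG
Clk4 junction of that exon and exon 3: ggacactcatcccagtcactattTAGa

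Of the 9 genes, 1 changed in total transcript level at an adjusted p below 0.05, Srpk1, which fell, and none changed by 1.5-fold at that threshold. Over all 16250 genes tested, 13.8% passed the same limma test, 6.51% as higher and 7.33% as lower in Prmt5-null, and 6.48% also changed by 1.5-fold. Groups did not overlap in 1 of the 9 genes, against 19.8% of all genes tested. The median log2 change of the 9 genes was 0.03, beside 0.00238 over all genes tested. Neither share of the 9 genes stood above that of all genes.

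Srpk1 encodes the kinase that loads phosphate onto SR proteins before nuclear import. It had 6528, 6900, 5581 and 6124 normalized counts in Prmt5-null libraries 10617, 10618, 10770 and 10771. In control libraries it had 7634 in CTRL-10650, 7461 in CTRL-10370, 7484 in CTRL-10596 and 7807 in CTRL-10597, an order kept for all genes below. Every control library lay above every Prmt5-null library, and the controls lay close together. The log2 change was -0.28 (SE 0.08, limma adjusted p = 0.0333), a fold of 0.825 with a 95% interval of 0.734 to 0.927. The size kept between -0.32 and -0.22 with 1 library left out, but the call did not. The adjusted p rose to 0.0539 without 10617, 0.0955 without 10771, 0.0744 without CTRL-10650, 0.0628 without CTRL-10370, 0.0707 without CTRL-10596 and 0.0841 without CTRL-10597. It was 0.0530 with no filter on low values and 0.0741 without limma's trend. Libraries came from 2 experiments, and the labels do not say which from which. With experiment as a block the call held in 15 of 18 possible placements.

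Srpk2, the paralog of Srpk1, had 1835, 2199, 2030 and 1974 normalized counts in Prmt5-null and 1715, 2173, 1963 and 1731 in control libraries. Its groups overlapped throughout, with a log2 difference of 0.09 (SE 0.10, limma adjusted p = 0.582) and a fold interval of 0.920 to 1.23. The fall of Srpk1 was therefore not accompanied by a change of Srpk2 that passed the test, and the difference between these paralogs was not itself tested.

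Among the CLK kinases, which phosphorylate SR proteins inside the nucleus, Clk2 had the largest difference. It had 3747, 4989, 3142 and 3934 normalized counts in Prmt5-null and 2399, 2656, 3670 and 3105 in control libraries. The lowest Prmt5-null library, 10770, lay below the highest control library, CTRL-10596, and the other 3 Prmt5-null libraries lay above every control. The log2 difference was 0.42 (SE 0.15), a fold of 1.34 with an unadjusted 95% interval of 1.07 to 1.67. It did not pass over all genes (limma adjusted p = 0.0864). The adjusted p was 0.0287 without 10770 and 0.0483 without CTRL-10596, and DESeq2 on recovered reads gave 0.0497. Up to 0.212 was reached with another library left out, and 2 of 18 placements of the experiment block gave a call.

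Clk1 had 6369, 13156, 7189 and 9805 normalized counts in Prmt5-null and 7263, 8529, 9513 and 8802 in control libraries. The Prmt5-null libraries ranged on both sides of the controls, and their SD was 3058 against 939 in control. The log2 difference of Clk1 was 0.05 (SE 0.19, limma adjusted p = 0.901), an interval that still allows folds from 0.779 to 1.37. Clk4, its close relative, had 2097, 3350, 2097 and 2816 in Prmt5-null and 1968, 2225, 2814 and 3071 in control libraries. Clk4 differed by 0.03 on the log2 scale (SE 0.17, limma adjusted p = 0.926), with a fold interval of 0.790 to 1.32. For both kinases the sign turned with the library left out.

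Clk3 was the steadiest of the CLK kinases within the Prmt5-null group. It had 2344, 2281, 2248 and 2312 normalized counts there, an SD of 1.79% of the mean, and 2468, 2490, 2871 and 2324 in control libraries. The 3 highest controls lay above every Prmt5-null library, and the log2 difference was -0.14 (SE 0.08, limma adjusted p = 0.266). Dyrk1a, a dosage-sensitive kinase that phosphorylates splicing factors among many substrates, had 5491, 5709, 4939 and 5539 in Prmt5-null and 5546, 5934, 5857 and 6353 in control libraries. Its groups overlapped through the lowest control, with a log2 difference of -0.13 (SE 0.07, limma adjusted p = 0.278).

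Son encodes an RNA-binding scaffold of speckles that also promotes splicing at weak sites. It had 25910, 31532, 22349 and 27893 normalized counts in Prmt5-null and 23450, 24083, 25460 and 29738 in control libraries, which interleaved. Its log2 difference was 0.06 (SE 0.11, limma adjusted p = 0.756). Srrm2, the other scaffold, had 14628, 14416, 10027 and 15269 in Prmt5-null and 19131, 13567, 14711 and 19726 in control libraries. Its controls split into a high and a low pair, and the low pair overlapped the Prmt5-null libraries. The log2 difference of Srrm2 was -0.31 (SE 0.15, limma adjusted p = 0.205), and its fold interval reached from 0.643 to 1.02.

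**Figure D1:**
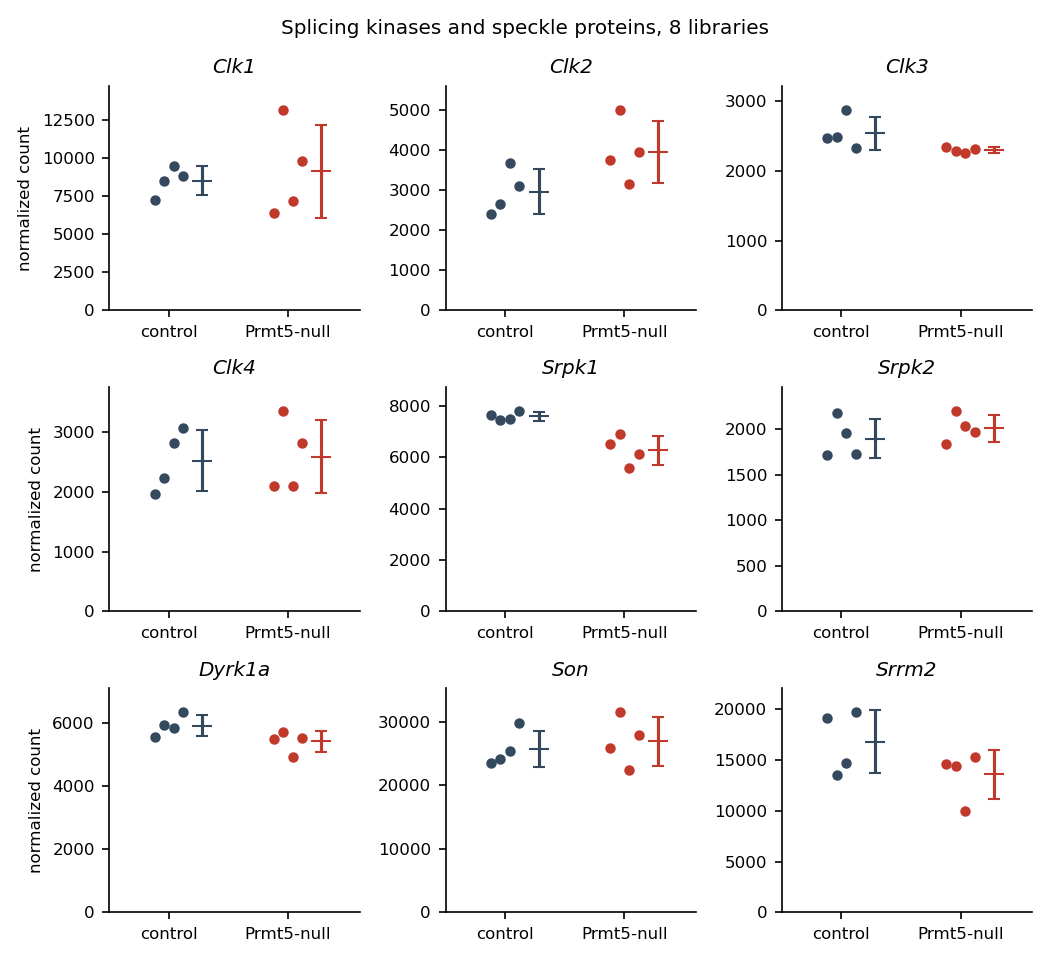
Normalized counts (y axis, from 0) of the 9 genes in each control (dark) and Prmt5-null (red) library as points, with the mean and SD beside them (n = 4 each). Only Srpk1 has no overlap, with controls at 7461 to 7807 and Prmt5-null libraries at 5581 to 6900.

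**Figure D2:**
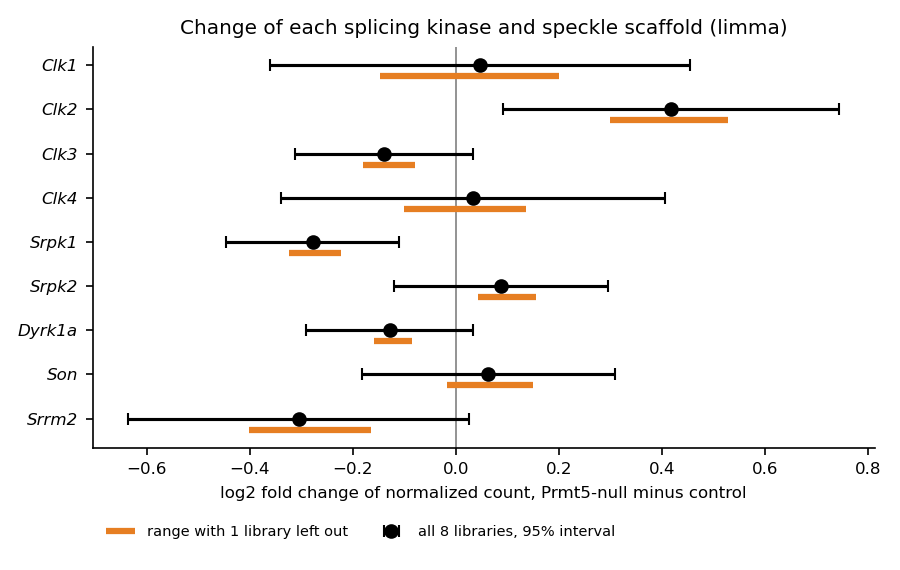
Log2 fold change of each gene, Prmt5-null minus control (x axis), with its unadjusted 95% interval in black and the range with 1 library left out in orange. The intervals of Srpk1 (-0.28) and Clk2 (0.42) exclude 0, and the orange ranges of Clk1, Clk4 and Son cross it.

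Divided by exonic length, so that genes can be compared, the control level was highest for Son at 1723 ± 190 normalized counts per kb (SD, n = 4), followed by Srrm2 at 1307 ± 241 and Clk1 at 1049 ± 115. Dyrk1a had 718 ± 40.3, Srpk1 614 ± 12.9, Clk2 558 ± 105, Clk4 435 ± 88.1, Clk3 300.4 ± 27.6 and Srpk2 136 ± 15.6 normalized counts per kb. In that order, the libraries of Srrm2 and Clk1, Srpk1 and Clk2, Clk2 and Clk4, and Clk4 and Clk3 overlapped, and the other neighbours did not. In Prmt5-null libraries the order was Son (1806 ± 257), Clk1 (1123 ± 376), Srrm2 (1058 ± 187), Clk2 (746 ± 145), Dyrk1a (657 ± 40.4), Srpk1 (508 ± 45.7), Clk4 (447 ± 105), Clk3 (272 ± 4.88) and Srpk2 (145 ± 10.8). Clk1 moved above Srrm2 and Clk2 above both Dyrk1a and Srpk1, differences within one genotype that were not tested. Exonic length here is the union of all annotated exons, retained introns included.

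The genes also varied together between mice of one genotype. Libraries 10618 and 10771 held the highest Prmt5-null values of Clk1, Clk2, Clk4 and Son. After the genotype means were subtracted, 30 of the 36 pairs of the 9 genes correlated above 0 over the 8 libraries, with Pearson's r from -0.62 to 0.93. The share over pairs of all genes was not computed, so this count does not set the 9 genes apart. The closest pairs were Dyrk1a and Son (r = 0.93), Clk4 and Son (r = 0.89), Clk1 and Clk4 (r = 0.88) and Clk2 and Clk4 (r = 0.87). Clk3 stood apart, with r from -0.30 to 0.44 with the other members, and Srpk2 and Srrm2 ran opposite (r = -0.62). Malat1, a nuclear RNA of speckles, ranged from 48125 to 153218 normalized counts and tracked Clk2 with r = 0.97 on the same scale. All points share libraries and size factors, so these values are descriptions of 8 libraries.

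Of 13300 genes with a mean above 50 normalized counts, those most alike to each CLK kinase by this measure were Etnk1, Manba and Pot1b for Clk1 (r = 0.99 for each). They were Ankrd23, Trmt1 and Gm25994 for Clk2 (r = 0.99 for each) and Tmem87b (0.99), Orai2 (0.98) and Phf14 (0.98) for Clk4. For Clk3 they were Lzts1 (0.98), Ccl25 (0.96) and Camkk1 (0.96). Likeness over so few libraries is a description, with no test.

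The other genes of the pathway were counted in 4 lists. Of 12 other kinases of these families or acting on splicing factors, 1 rose and 1 fell, with a median log2 change of 0.06. Srpk3, the third SR protein kinase and best known from muscle, fell by 1.09 on the log2 scale, from 1116 ± 360 to 531 ± 208 normalized counts (SD, n = 4 each, SE of the change 0.26, limma adjusted p = 0.0155). Dyrk4, a relative of Dyrk1a, rose from 138 ± 19.7 to 261 ± 73.3, a log2 change of 0.89 (SE 0.20, limma adjusted p = 0.0138).

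None of the 7 phosphatase genes passed the test, and their log2 differences lay between -0.08 and 0.11. Among 13 SR protein genes, the substrates of these kinases, 1 rose and none fell, with a median of -0.02. It was Srsf7, from 11711 ± 1083 to 14439 ± 741 normalized counts (log2 change 0.31, SE 0.08, limma adjusted p = 0.0308). Of 20 other speckle genes, 4 rose and 1 fell, with a median of 0.07. Nktr, a cyclophilin with an arginine-serine domain, fell by 0.61 on the log2 scale (SE 0.15, limma adjusted p = 0.0158). Pnn, a component of the exon junction complex periphery, rose by 0.50 (SE 0.15, adjusted p = 0.0454), and Alyref, an mRNA export factor, by 0.39 (SE 0.07, adjusted p = 0.00416). Shares of 2 in 12, 1 in 13 and 5 in 20 stand beside 13.8% of all genes.

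**Figure D3:**
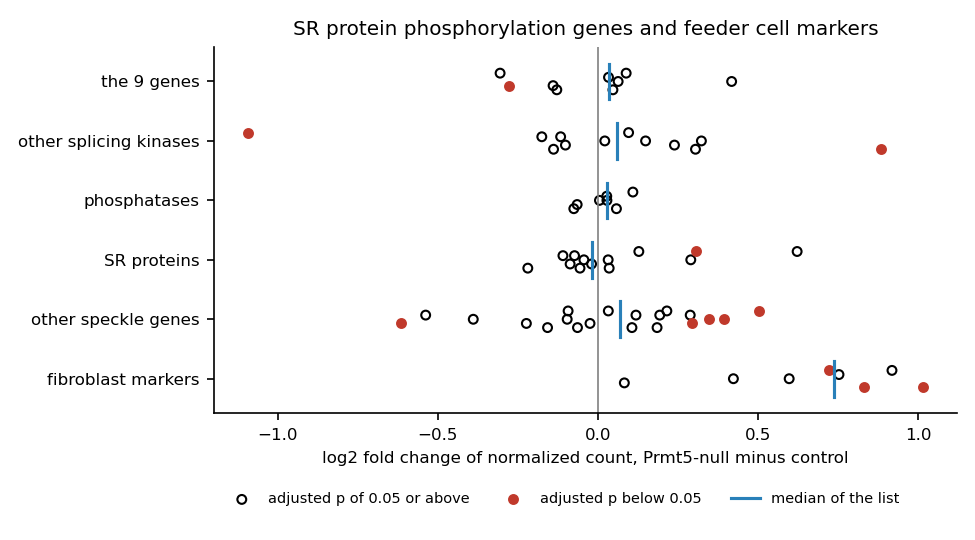
Log2 fold change, Prmt5-null minus control (x axis), of the 9 genes, the 4 lists around them and the fibroblast markers, with red points below an adjusted p of 0.05 and a blue line at the median of each list. Medians lie near 0 (0.03, 0.06, 0.03, -0.02 and 0.07 from the top) except for fibroblast markers at 0.74.

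Splicing gave a different picture from levels. The authors ran rMATS, which compares reads for the inclusion and skipping forms of an event, and listed for each gene at most 1 event of each type past their thresholds. The tables held 1918 events in 1519 genes, and 7 of them lay in 5 of the 9 genes, namely Clk2 (3 events), Clk4, Dyrk1a, Srpk1 and Srpk2. Of all genes with a mean above 50, 11.4% carried a listed event, and of genes at least as high as the lowest of the 9, 13.5% did. By type, 6.86% carried a skipped exon, 2.53% a retained intron, 2.63% mutually exclusive exons and 0.962% an alternative 3′ site. No event was listed for Clk1, Clk3, Son or Srrm2, which says only that none passed the authors' thresholds. Since events were listed for differing between these libraries, their values are descriptions without a test, and the 4 values per genotype do not name their mice. The lists carry no genotype either, and the first was taken as control because the study gives differences as WT over KO.

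Clk2 carried events of 3 types, a retained intron, an alternative 3′ splice site and a skipped exon, and 0.429% of genes with a mean above 50 carried as many types. All 3 describe exons 3 to 5 and share 1 set of skipping reads, those joining exon 3 to exon 5, so they are not independent. The retained region (chr3:89168924-89170048, 1125 bases) spans intron 3, exon 4 and intron 4, and is kept whole in the annotated transcript Clk2-207. The alternative 3′ site event sets a long exon running from exon 4 through intron 4 into exon 5, as in Clk2-206, against exon 5 alone. That long exon begins at the acceptor of exon 4, so its inclusion reads also count ordinary spliced exon 4.

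The inclusion level of the Clk2 retained region was 0.339, 0.340, 0.353 and 0.395 in control and 0.604, 0.620, 0.629 and 0.720 in Prmt5-null iGBs, sorted from low to high. The groups did not overlap, and the mean difference of 0.287 ranked at 70 of 337 retained intron events by size. Retention was higher in Prmt5-null iGBs in 86.9% of these events, Clk2 among them. For the alternative 3′ site, inclusion was 0.443, 0.469, 0.488 and 0.493 in control and 0.739, 0.747, 0.768 and 0.822 in Prmt5-null iGBs, again without overlap. Its mean difference of 0.296, the 21st in size of 128 events of that type, was 0.247 from junction reads alone. Ordinary spliced transcripts that keep the exon inside the long form also add to its inclusion, so this rise does not measure intron retention alone.

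Inclusion of Clk2 exon 4 itself was 0.532, 0.599, 0.627 and 0.683 in control and 0.683, 0.743, 0.802 and 0.817 in Prmt5-null iGBs. Here the highest control met the lowest Prmt5-null value. The rise of 0.151 went against most skipped exon events, since inclusion was higher in Prmt5-null iGBs in 32.6% of 913.

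The reads behind these levels separate the forms only in part. Exon 4 inclusion reads can come from Clk2-206 as well as Clk2-203, and reads at the outer boundaries from Clk2-206 as well as Clk2-207. Reads that joined exon 3 to exon 5, across the junction that leads to the TAA, numbered 31, 49, 76 and 34 in control and 21, 40, 21 and 32 in Prmt5-null iGBs, in the order of the authors' lists. Their sums were 190 and 114, from total depths of 177391804 and 179919406 reads on genes. Reads for the inclusion of exon 4 in the skipped exon event numbered 114, 141, 148 and 87 in control and 160, 198, 145 and 118 in Prmt5-null iGBs, sums of 490 and 621.

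Reads crossing the outer exon-intron boundaries of the retained region were recovered from the junction-only level and the skipping reads, each as the single whole number that gave the deposited level. They numbered 45, 67, 96 and 47 in control and 154, 168, 60 and 149 in Prmt5-null iGBs, sums of 255 and 531. Of the Prmt5-null values, 3 lay above every control, and the third in the list lay within the control range. Per skipping read of the same library, boundary reads stood at 1.45, 1.37, 1.26 and 1.38 in control and 7.33, 4.20, 2.86 and 4.66 in Prmt5-null iGBs, which did not overlap. That ratio is fixed by the junction-only level of the event, 0.387 to 0.421 in control and 0.588 to 0.786 in Prmt5-null iGBs. It therefore adds no separate comparison. Per exon 4 inclusion read, boundary reads stood at 0.395, 0.475, 0.649 and 0.540 in control and 0.963, 0.849, 0.414 and 1.26 in Prmt5-null iGBs, which overlapped through that same library. Inclusion reads of the alternative 3′ site as deposited also count ordinary spliced exon 4, whereas these boundary reads do not.

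**Figure D4:**
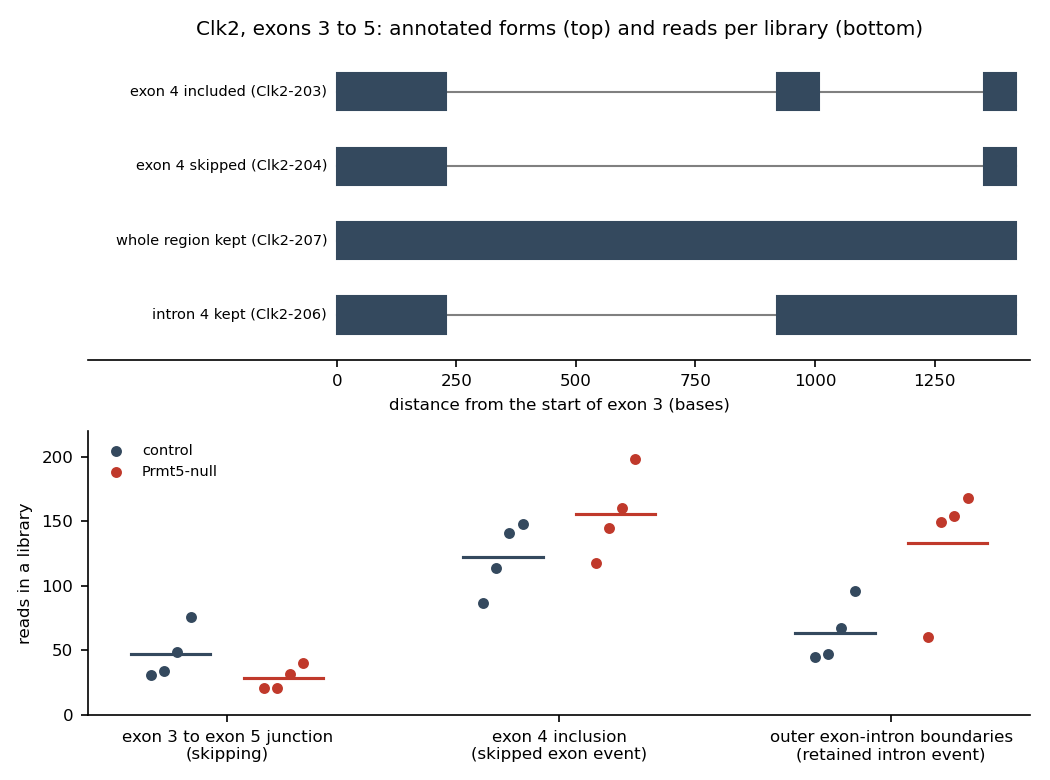
Top, the annotated forms of Clk2 exons 3 to 5 by distance from the start of exon 3 in bases, with boxes for sequence kept in the RNA. Bottom, reads per library (y axis) for the skipping junction, exon 4 inclusion and the outer boundaries of the retained region, with a line at the mean of each genotype, where boundary reads sum to 255 in control and 531 in Prmt5-null and skipping reads to 190 and 114.

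Clk4 showed less of the exon that leads to an early stop. Inclusion of its 59-base exon was 0.259, 0.269, 0.296 and 0.375 in control and 0.125, 0.167, 0.176 and 0.219 in Prmt5-null iGBs. Every Prmt5-null value lay below every control, with means of 0.300 and 0.172. Inclusion reads summed to 177 in control and 100 in Prmt5-null, and reads joining exon 2 to exon 3 directly to 291 and 336. Its direction, lower inclusion in Prmt5-null iGBs, was that of 67.4% of skipped exon events, and its size ranked 687 of 913. In both Clk2 and Clk4, the form with the early stop held a smaller mean share of its skipped exon event in Prmt5-null iGBs. That form skips exon 4 in Clk2 and keeps the 59-base exon in Clk4. In Clk2, exon 4 inclusion reads can also come from Clk2-206, annotated as a retained intron transcript, so this share does not measure coding transcripts. Reads at the outer boundaries of the Clk2 retained region summed to 255 in control and 531 in Prmt5-null iGBs. The highest control and lowest Prmt5-null inclusion of Clk2 exon 4 were equal.

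In Dyrk1a the event lay at the start of the protein. The skipped exon (chr16:94611460-94611504, plus strand, 45 bases) holds the start codon of Dyrk1a-201 at position 94611495, and its coding part reads ATGcatacag with the start codon in capitals. Without it, as in Dyrk1a-203, translation is annotated to start at position 94659574 in the next exon, 29 codons further on. The upstream flank of the event is exon 1 of Dyrk1a-203, and the inclusion form was not matched to a whole annotated transcript. Inclusion was 0.774, 0.834, 0.837 and 0.864 in control and 0.625, 0.654, 0.655 and 0.788 in Prmt5-null iGBs. A single Prmt5-null value lay above the lowest control, and the means were 0.827 and 0.681. The skipping form rested on 6 to 9 reads per control library and 12 to 22 per Prmt5-null library, so single levels are imprecise.

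The Srpk1 event was listed as mutually exclusive exons, a 26-base exon (chr17:28600869-28600894, minus strand, reading TCAGCACTGCTCCACAGCCTAAGCCA) against a 214-base exon (chr17:28600243-28600456). Both are consecutive exons, 9 and 10, of the coding transcript Srpk1-204, so they are not exclusive there, and Srpk1-201, annotated for nonsense-mediated decay, has the first without the second. Srpk1-204 can add reads to both sides, through its joins of exons 8 and 9 and of exons 10 and 11, so the level is not the share of a single form. From junction reads alone, the inclusion level of the 26-base exon was 0.218, 0.280, 0.308 and 0.333 in control iGBs. It was 0.324, 0.386, 0.407 and 0.432 in Prmt5-null iGBs. The groups overlapped in 1 value, and with target reads included the means were 0.235 and 0.297. Inclusion reads were alike, 223 in control and 208 in Prmt5-null, while skipping reads summed to 1638 and 1117. The fall of Srpk1 in total level and this fall of its skipping reads come from the same libraries.

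The Srpk2 event, a 146-base exon (chr5:23629332-23629477, minus strand), rested on 39 reads over 8 libraries, with 1 to 14 in a library. Inclusion was 0.234, 0.315, 0.479 and 0.534 in control and 0, 0, 0.133 and 1 in Prmt5-null iGBs. No difference in Srpk2 splicing was readable at this depth.

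**Figure D5:**
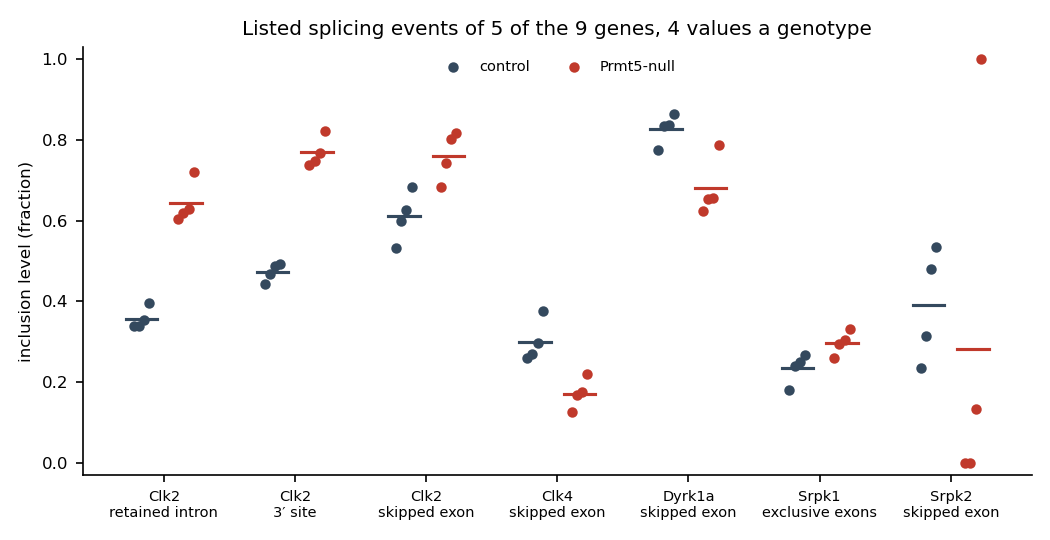
Inclusion level (y axis, a fraction of the length-corrected reads from junctions and targets) of the 7 listed events in control (dark) and Prmt5-null (red) iGBs, with 4 values and their mean for each genotype. The genotypes are apart for the Clk2 retained intron and 3′ site and for Clk4, and touch or overlap for the other 4 events.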

How the data were processed

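RNA depleted of rRNA was sequenced from 4 mice per genotype, so replicates are animals. The authors trimmed reads with Trimmomatic 0.32, aligned them to GRCm38 with STAR 2.3.0e, counted them with featureCounts 1.4.4 and deposited a normalized signal per gene, each count divided by a DESeq2 1.14.1 size factor. The kit is stranded, but the strand setting of the counting is not given in the sources used here, so overlapping and antisense genes are uncertain. The deposited rMATS tables hold other values per event, the lists of inclusion levels and read counts. They also hold p-values, FDR values and level differences of the authors' own comparison, which were not used. Read classes were junction reads alone and junction with target reads.

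Every value (100%, tolerance 1e-06) was a whole multiple of 1 read, which gave 42752293 to 47174851 reads in Prmt5-null and 36731721 to 50366174 in control libraries. No 2 libraries agreed within sampling noise. Log2(normalized count + 1) of 16250 genes with a mean of at least 10 was fitted with limma 3.58.1 (R 4.3.3, trend, Benjamini-Hochberg). Fold changes are on that scale and 95% intervals are unadjusted. edgeR 4.0.16 on the recovered reads called 2274 genes and DESeq2 1.42.0 called 3075, against 2249 by limma. Tests were checked on simulated counts. Events were summarised in Python 3.11.15 with pandas 2.3.3 and NumPy 2.4.6, and their annotation and sequences come from GENCODE M21. Symbols of 3 listed genes were updated by gene identifier, and a second row of Ebf1 was left out.

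The 9 genes and all lists were chosen with earlier results of these data known. Named genes are the 9, their events, at most the 3 largest changes per list below an adjusted p of 0.05, Prmt5, 3 genes most like each CLK kinase, and cell type markers. Of the other genes, Cd79a, Fas, Jchain, Sdc1, Adgre1, Xbp1, Prdm1, Col3a1, Col1a2, Sparc, Lum, Postn and Cd3e come from the marker lists. Alternatives changed the pseudocount, filter, normalization, trend, tool, libraries and an experiment block in 18 placements.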

Additional observations from a re-analysis of the deposited data

Results flagged for a closer look

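Each of the 9 genes and 7 events was checked in both genotypes for a library far from the other 3, in 32 groups of 4 libraries, where chance flags about 1 in 20. Srrm2 had 10027 normalized counts in Prmt5-null library 10770 against 14416 to 15269 in the other 3, a gap of 0.837 of the group's range, past Dixon's limit for 4 values. Without library 10770, Srrm2 differed by -0.17 on the log2 scale (limma adjusted p = 0.399). The Srpk2 exon was at an inclusion level of 1 in 1 Prmt5-null list position, a gap of 0.867 of the range, in a position with 2 reads.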

How the results depend on the processing

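The number of the 9 genes with an adjusted p below 0.05 was 1 in the main analysis. It was 0 with no filter on low values and without limma's trend, 2 with DESeq2 (Clk2 and Srpk1), 0 to 2 with 1 library left out and 0 to 2 over the 18 placements of the experiment block. Over all genes, 2249 passed in the main analysis, and 1374 to 2371 with 1 library left out (1374 without Prmt5-null library 10771). At 1.5-fold the main count was 1053, and 795 to 1173 with 1 library left out.

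Signs turned with 1 library left out for Clk1 (log2 difference from -0.15 to 0.20), Clk4 (-0.10 to 0.14) and Son (-0.017 to 0.15). Srpk1 stayed lower in every alternative (-0.32 to -0.22), with limma, edgeR or DESeq2 adjusted p from 0.0115 to 0.0955, and Clk2 stayed higher (0.30 to 0.53), with adjusted p from 0.0100 to 0.212. The cause of these changes was not tested. No alternative gave an adjusted p below 0.05 for the other 7 genes. Of the 7 splicing events, 6 had at least 20 reads in each library, 6 reached a difference of 0.1 from junction reads alone, and 2, both in Clk2, reached 0.25. No event changed sign with a list position left out, with summed reads or with the other read class. No paired analysis was possible because the labels share no replicate numbers between genotypes. With 4 mice a genotype, differences such as those of Clk1 and Clk4 have wide intervals (folds of 0.779 to 1.37 for Clk1), and smaller changes could not be seen.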
